A study of Mus musculus with 15 samples.

Results

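The phagocyte NADPH oxidase is represented here by 6 genes of the 38315 in the expression table: Cybb, Cyba, Ncf1, Ncf4, Rac2 and Hvcn1. They were taken by gene name, each name matched 1 row, and all 6 passed the filter on low values, as did 18941 genes in all. Transcript levels came from bulk sequencing of total RNA from mouse bone marrow. Of the 15 marrows, 7 carried acute myeloid leukaemia (AML) and the transgenic genotype NUP98NSD1/FLT3ITD, which joins the nucleoporin gene NUP98 to the histone methyltransferase gene NSD1 and adds an internal tandem duplication in the receptor kinase FLT3. The normal marrows were Wild Type: 4 were whole marrow and 4 were lineage negative, that is, depleted of cells bearing antigens of mature blood lineages. No treatment was named for any group, and age, strain, the promoters of the transgenes and the antigens used for depletion are not given in the sources used here. Nothing in the labels says how many litters or cohorts the mice came from, so p-values measure only the spread between these samples.

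The oxidase of neutrophils, monocytes and macrophages passes electrons from NADPH across the membrane to oxygen and so makes superoxide, which is used against engulfed microbes. Its catalytic core is cytochrome b558, built from gp91phox, the product of Cybb, and p22phox, the product of Cyba. In resting cells regulatory subunits, among them p47phox (Ncf1) and p40phox (Ncf4), wait in the cytosol, and on stimulation they move to the membrane together with the GTPase Rac, of which Rac2 is the form typical of blood cells. The voltage-gated proton channel encoded by Hvcn1 carries out the protons that would otherwise build up as the oxidase moves charge. Loss of the core or of a cytosolic subunit causes chronic granulomatous disease.

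Depth was estimated at 20300000 to 35100000 reads per AML library, 11400000 to 17200000 in whole marrow and 20300000 to 28100000 in lineage-negative marrow. The shallower whole marrow libraries nevertheless listed 7.12% to 15.7% of genes at 0, against 35.7% to 41.0% in lineage-negative marrow and 23.6% to 41.4% in AML, where replicates 5 and 6 were lowest. All values are normalized counts, that is, counts divided by the authors' size factor of each library. Over all genes tested, AML differed from whole marrow by a median of 0.67 (log2) and lineage-negative from whole marrow by 0.59, but AML from lineage-negative marrow by 0.02. A relative difference below is a log2 difference minus this median, and values after rescaling by trimmed mean of M values (TMM), which sets the bulk of genes level between libraries, are given beside it. The labels were checked with marker genes. In lineage-negative against whole marrow all 10 neutrophil markers and all 9 B cell markers were lower and all 6 progenitor markers higher. Other lists moved in part: 5 of 10 monocyte and macrophage, 3 of 5 eosinophil and 2 of 6 dendritic markers were lower. Of 8 T and NK cell markers 6 were lower and 1 higher, and all 4 mast and basophil markers were higher. Of 8 erythroid markers 5 were lower and 1 higher, and of 5 megakaryocyte markers 1 was lower and 1 higher. Stroma and endothelium markers were lower for 4 of 5. After TMM scaling 5 of 6 progenitor markers were higher, and 7 of 10 monocyte and macrophage and 3 of 6 dendritic markers were lower. In AML against whole marrow all 8 erythroid markers were lower. Calls came from limma over all genes tested and needed both an adjusted p below 0.05 and a log2 difference of 1 or more in size. Errors are standard deviations over samples, except where a standard error (SE) is named.

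The sequences just before the starts of oxidase genes are shown because the 6 genes were lower together in lineage-negative marrow. RefSeq promoters, 250 bases before to 50 bases after the start, were at hand for 3 of the 6 genes in build GRCm38.p6, and the bases before the start are printed 5′ to 3′ on the gene's strand. Capitals mark matches, on either strand, to 6 motifs that were chosen after these sequences had been read. They were GAGGAA, the core bound by PU.1, a joint ETS and IRF site written as GGAA and GAAA with 2 free bases between, and an interferon response type site written as GAAA and GAAA with 2 free bases between. The others were TGTGGT for RUNX, TTGCNNAA for C/EBP and AGATAA for GATA factors.
Cybb, chrX:9469325-9469574, minus strand: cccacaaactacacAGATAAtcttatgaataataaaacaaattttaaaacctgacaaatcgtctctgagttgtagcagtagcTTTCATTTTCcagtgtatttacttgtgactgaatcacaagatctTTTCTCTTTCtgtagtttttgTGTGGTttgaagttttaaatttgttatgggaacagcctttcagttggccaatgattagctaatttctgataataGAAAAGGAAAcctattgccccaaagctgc
Cyba, chr8:122432941-122433190, minus strand: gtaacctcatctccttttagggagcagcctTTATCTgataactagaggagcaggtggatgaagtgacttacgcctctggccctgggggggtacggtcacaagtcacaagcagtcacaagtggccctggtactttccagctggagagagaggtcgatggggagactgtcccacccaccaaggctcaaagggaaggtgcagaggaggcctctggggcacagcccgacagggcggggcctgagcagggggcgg
Ncf1, chr5:134229626-134229875, minus strand: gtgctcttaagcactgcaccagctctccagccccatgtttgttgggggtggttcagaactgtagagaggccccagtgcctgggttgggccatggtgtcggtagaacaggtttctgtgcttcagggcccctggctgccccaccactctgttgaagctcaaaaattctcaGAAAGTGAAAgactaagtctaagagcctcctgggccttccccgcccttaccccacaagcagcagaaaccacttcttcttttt
Cybb also had a site just after its start, in which the joint ETS and IRF motif and the PU.1 core overlap. Both are read on the strand opposite to the one printed.
Cybb, chrX:9469304-9469324, minus strand: tgtTTTCATTTCCTCatcaga

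Over all 32841 promoters of that table with 300 bases, 28.3% held GAGGAA, 2.72% the joint ETS and IRF site, 3.44% the interferon response type site, 16.8% held TGTGGT, 10.8% held TTGCNNAA and 11.2% held AGATAA. Cybb held the interferon response type site at 3 places before its start, and Ncf1 held it at 1. In Cyba the single match was AGATAA. TTGCNNAA matched in none of the 3 windows, which says only that these letters are not there. A match is a string of letters and no evidence of binding.

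All 6 oxidase genes were higher in AML than in lineage-negative marrow and were lower in lineage-negative than in whole marrow. The size of the step was uneven: it was largest for Cybb, the catalytic subunit, and smallest for Rac2 and Hvcn1. Between AML and whole marrow the differences were small, and their direction for Ncf1, Rac2 and Hvcn1 turned with the scaling.

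Among the membrane subunits, Cybb (ENSMUSG00000015340, X, 9301491 to 9354010 in the table's own coordinates, minus strand) ran from 21241 to 49734 normalized counts in AML, with a median of 35226. In whole marrow replicates 1 to 4 it was 11722, 25230, 21947 and 20619. In lineage-negative marrow it was 1541, 734, 778 and 1023. Gene coordinates are those of the deposited table, whose starts differ from GRCm38 for most genes although the submitters' processing notes name mm10, so they do not line up with the promoters above. The lowest AML library fell within the range of whole marrow, and all lineage-negative libraries lay far below both. The means were 34957 ± 8877 (SD, n = 7), 19880 ± 5773 (SD, n = 4) and 1019 ± 371 (SD, n = 4).

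Cyba (ENSMUSG00000006519, 8, 123151515 to 123159669, minus strand), whose product stabilises gp91phox and docks p47phox, ran from 6390 to 11121 in AML with a median of 8075. It was 2743, 5940, 4730 and 3883 in whole marrow, and 1275, 1385, 1000.3 and 1035 in lineage-negative marrow. As deposited, none of the 3 groups overlapped for Cyba. AML lay wholly above whole marrow for 35.8% of all genes, and lineage-negative wholly below whole marrow for 16.6%. After TMM scaling AML and whole marrow overlapped for Cyba, with AML replicate 5 at 5401 and whole marrow replicate 2 at 7276. Its means were 8499 ± 1858 (SD, n = 7), 4324 ± 1350 (SD, n = 4) and 1174 ± 187 (SD, n = 4).

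Of the cytosolic subunits, Ncf1 (ENSMUSG00000015950, 5, 134248907 to 134258479, minus strand), the organizer that is phosphorylated on activation, ran from 13007 to 27598 in AML with a median of 15215. It was 8686, 17016, 14212 and 12250 in whole marrow, and 4463, 3280, 2945 and 2549 in lineage-negative marrow. AML replicates 1 and 6 alone exceeded every whole marrow library, and the other 5 fell inside the whole marrow range. Ncf1 means were 17539 ± 5696 (SD, n = 7), 13041 ± 3501 (SD, n = 4) and 3309 ± 825 (SD, n = 4).

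Ncf4 (ENSMUSG00000071715, 15, 78129001 to 78146780, plus strand), which encodes the subunit that binds phosphatidylinositol 3-phosphate on phagosomes, ran from 3735 to 8548 in AML with a median of 4937. It was 1806, 3909, 3440 and 2523 in whole marrow, and 1396, 611, 542 and 605 in lineage-negative marrow. Only AML replicate 4 fell among the whole marrow libraries. The lineage-negative mean of 788 ± 406 (SD, n = 4) rested in part on replicate 1, which had over 2 times the count of each of the others. Over AML libraries the mean was 5718 ± 1709 (SD, n = 7) and over whole marrow 2919 ± 939 (SD, n = 4).

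Rac2 (ENSMUSG00000033220, 15, 78443367 to 78456983, minus strand), the GTPase needed for an active oxidase, ran from 10909 to 20268 in AML with a median of 12017. It was 5241, 12452, 10397 and 9353 in whole marrow, and 5078, 4361, 4024 and 3804 in lineage-negative marrow. The 2 normal groups nearly touched, at whole marrow replicate 1 and lineage-negative replicate 1. The means were 13482 ± 3369 (SD, n = 7), 9361 ± 3033 (SD, n = 4) and 4317 ± 557 (SD, n = 4). Rac2 is close in sequence to Rac1 and Rac3, so the division of reads between them is uncertain.

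Hvcn1 (ENSMUSG00000064267, 5, 122344867 to 122380360, plus strand), the proton channel, ran from 2110 to 3292 in AML with a median of 2802. It was 1510, 3069, 2532 and 2369 in whole marrow, and 1393, 1092, 1161 and 923 in lineage-negative marrow. Of 7 AML libraries 1 exceeded all whole marrow libraries. The means were 2620 ± 473 (SD, n = 7), 2370 ± 647 (SD, n = 4) and 1142 ± 195 (SD, n = 4).

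**Figure D1:**
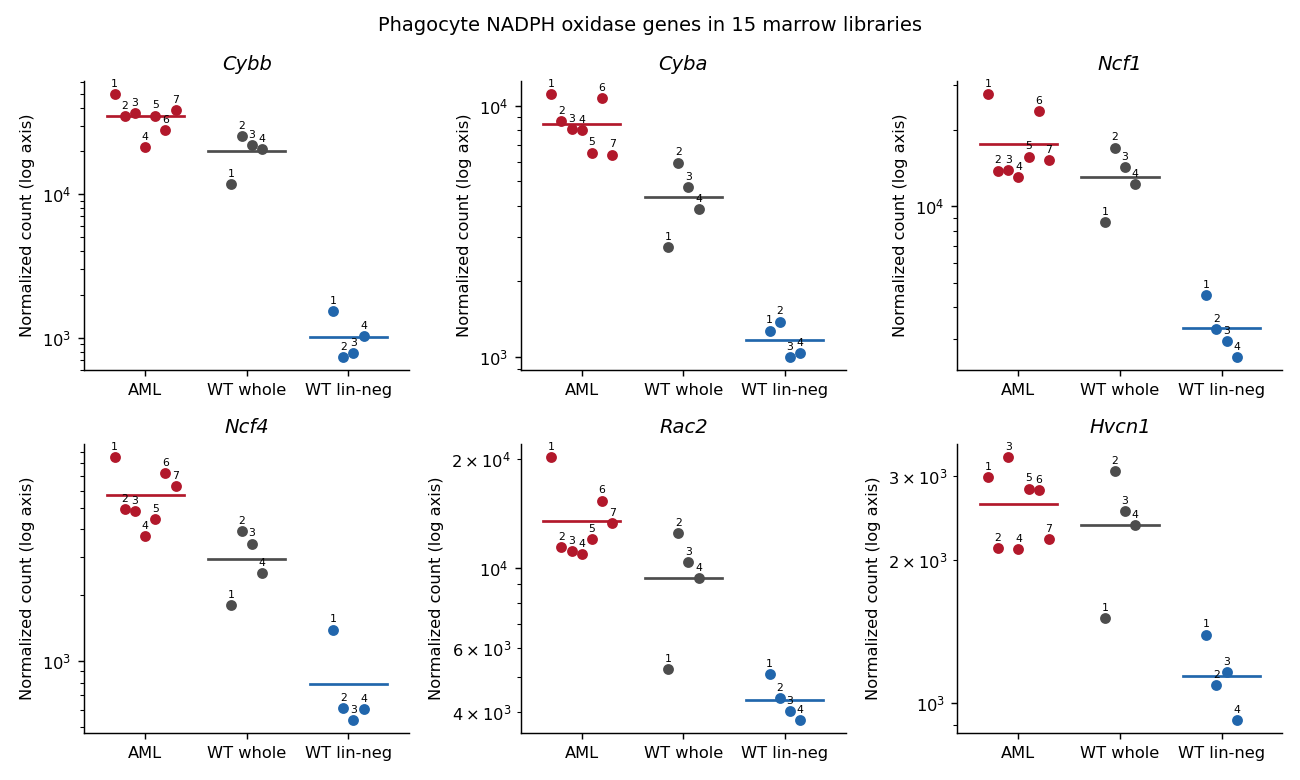
Normalized count (log axis) of each of the 6 genes in 7 AML, 4 wild-type whole and 4 wild-type lineage-negative (lin-neg) libraries. Points are libraries labelled by replicate number and lines are group means; for Cybb the 4 lineage-negative libraries lie between 734 and 1541, below every other library.

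AML was set against lineage-negative marrow to compare leukaemia with the less mature cells of normal marrow. All 6 genes were called higher in AML, against 17.7% of all genes tested, or 17.6% after TMM scaling, where all 6 were called too. Lower calls were made for 12.5% of genes. For all 6 every AML library lay above every lineage-negative library, which held for 17% of all genes in this direction. The log2 difference of Cybb was 5.12 (SE 0.27, limma adjusted p = 4.65e-11), higher than that of 99.1% of genes tested. Ncf4 followed with 2.92 (SE 0.28, adjusted p = 5.28e-08) and Cyba with 2.84 (SE 0.21, adjusted p = 2.56e-09). Ncf1 had 2.38 (SE 0.25, adjusted p = 2.02e-07). Rac2 had 1.62 (SE 0.23, adjusted p = 1.13e-05), and Hvcn1 had 1.19 (SE 0.20, adjusted p = 5.70e-05). The intervals of Cybb and of the other 5 genes did not meet: 4.57 to 5.68 for Cybb against an upper bound of 3.50 for Ncf4. In bulk marrow, fewer cells that carry a transcript and less of it per cell cannot be told apart.

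Markers of mature phagocytes and of several other mature cell types moved with these genes, while those of other mature lineages went the other way. All 10 neutrophil markers were called higher in AML than in lineage-negative marrow, and their summed level ran from 398909 to 1388620 in the AML libraries but from 976 to 17113 in the lineage-negative ones, with none of the 10 at 0 in every library of a group. All 10 monocyte and macrophage markers were called higher too, with sums of 91719 to 148048 against 19307 to 30997. Also called higher were all 6 dendritic markers, with sums of 11932 to 98469 against 341 to 670. So were 7 of 9 B cell, 5 of 8 T and NK cell and 4 of 5 stroma and endothelium markers. Of the 8 T and NK cell markers 1 was called lower. B cell sums were 595 to 6775 against 336 to 594, T and NK cell sums 1301 to 3912 against 1448 to 1943, and stroma and endothelium sums 261 to 1579 against 137 to 838. All 6 progenitor markers were lower in AML, with sums of 1618 to 5380 against 14285 to 18835. Also called lower were all 5 eosinophil, all 4 mast and basophil, 4 of 8 erythroid and 3 of 5 megakaryocyte markers. Eosinophil sums were 402 to 1399 against 7544 to 38472. The part of these cells in the differences of the oxidase genes was not tested.

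In lineage-negative against whole marrow, that is, depleted against undepleted normal marrow, all 6 genes were called lower, against 17.2% of all genes tested. Higher calls were made for 33.1% of genes. After TMM scaling all 6 were called lower as well, against 24.8% of all genes. For all 6 the 2 groups did not overlap, as for 16.6% of all genes in this direction. Cybb stood at −4.29 (log2; SE 0.30, limma adjusted p = 7.67e-09), or −4.88 relative to the median gene. Ncf1, Ncf4 and Cyba followed with −1.97, −1.94 and −1.84, or −2.56, −2.53 and −2.43 relative to it. For Rac2 the difference was −1.06 (SE 0.26, adjusted p = 0.00165) and for Hvcn1 −1.02 (SE 0.22, adjusted p = 0.000545), close to the threshold of 1. Rac2 no longer passed when whole marrow replicate 2 was left out, at −0.90, nor without replicate 3, at −0.98, nor without lineage-negative replicate 4, at −0.999. The same libraries ended the Hvcn1 call, at −0.88, −0.98 and −0.93. After TMM scaling both were further below whole marrow, at −1.76 and −1.72, and were called.

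The summed neutrophil markers were 430275 to 1149280 in whole marrow, and 10 of 10 were called lower in lineage-negative marrow. Of the 10 monocyte and macrophage markers 5 were called lower, and their sums overlapped, at 19307 to 30997 in lineage-negative and 19617 to 42047 in whole marrow. The 9 B cell markers summed to 4386 to 9356 in whole marrow and 336 to 594 in lineage-negative marrow, where 4 of the 9 had a mean under 10. Oxidase genes, among them Hvcn1, Rac2 and Cyba, are transcribed in B cells too. Both comparisons above share the lineage-negative libraries. The part of these markers' cells was not tested.

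**Figure D2:**
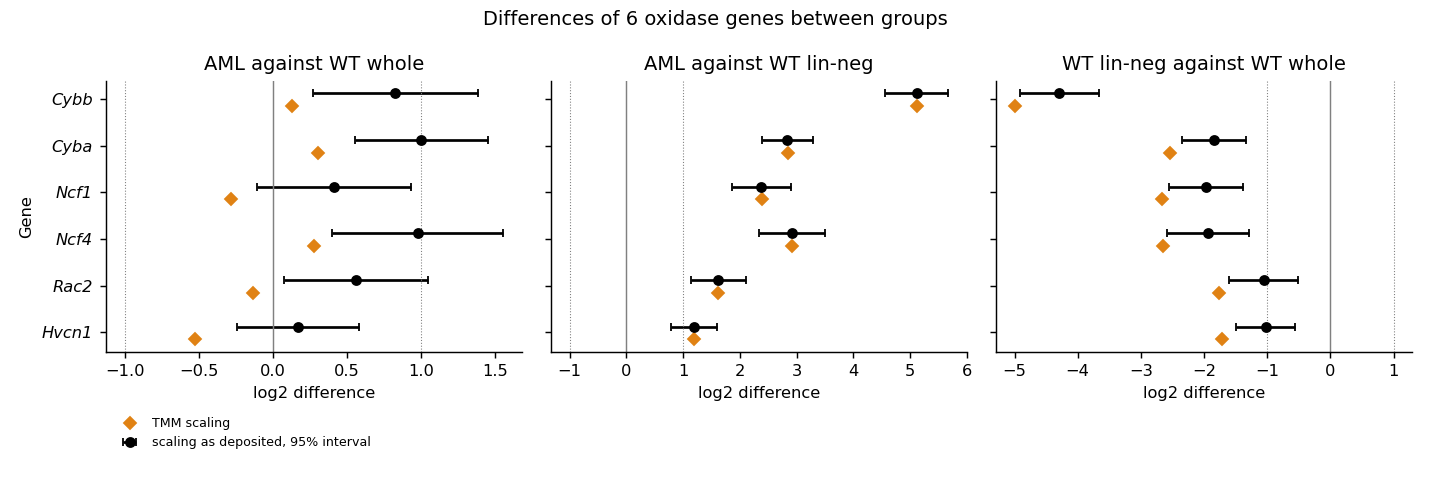
Log2 difference (x axis) of each gene (y axis) in the 3 comparisons, with the deposited scaling and its 95% interval (black) and after TMM scaling (orange); dotted lines mark −1 and 1. Against lineage-negative marrow both scalings coincide for all 6 genes, whereas against whole marrow the TMM values of Ncf1, Rac2 and Hvcn1 lie below 0.

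AML was also set against unfractionated normal marrow, which holds cells of all stages. Of the 6 genes 1, Cyba, was called higher, against 27.3% of all genes tested, and none was called lower, against 11.3%. After TMM scaling none was called in either direction, against 4.73% of genes higher and 16% lower. The log2 difference of Cyba was 1.00 (SE 0.21, limma adjusted p = 0.00055), at the threshold itself. Its 7 AML libraries all exceeded the 4 whole marrow libraries as deposited, as for 35.8% of all genes, but not after TMM scaling. Relative to the median gene it was 0.33. Its call was lost after TMM scaling, at 0.30 (adjusted p = 0.171), and without AML replicate 1, 2 or 6, at 0.93, 0.99 and 0.94, or without whole marrow replicate 1 or 4, at 0.80 and 0.97.

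Ncf4 had 0.98 (SE 0.28, adjusted p = 0.00473), just short of the threshold of 1, and passed it in 6 of the 11 refits that left out 1 library of these groups: those without AML replicate 2, 3, 4 or 5, at 1.00 to 1.07, and without whole marrow replicate 2 or 3, at 1.14 and 1.08. Relative to the median gene it was 0.31. Cybb had 0.83 (SE 0.27, adjusted p = 0.0108), or 0.15 relative to the median gene, and 6 of its 7 AML libraries exceeded all of whole marrow. Without whole marrow replicate 1 it was 0.59 (adjusted p = 0.0533).

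Rac2 had 0.56 (SE 0.23, adjusted p = 0.0414), Ncf1 had 0.41 (SE 0.25, adjusted p = 0.153), and Hvcn1 had 0.17 (SE 0.20, adjusted p = 0.464). After TMM scaling Rac2 was at −0.14 (adjusted p = 0.542) and Ncf1 at −0.28 (adjusted p = 0.301), and Hvcn1 was at −0.53 (adjusted p = 0.00876), lower than whole marrow by less than the threshold. Without whole marrow replicate 1, whose counts were the lowest of its group for all 6 genes, Hvcn1 was at −0.03, Rac2 at 0.31 (adjusted p = 0.181) and Ncf1 at 0.23 (adjusted p = 0.434). Summed neutrophil markers overlapped between these groups, and none of the 10 was called in either direction, or 1 lower after TMM scaling. Monocyte and macrophage markers did not overlap: 8 of 10 were called higher in AML, or 4 after TMM scaling, and 1 lower, and the sums were 91719 to 148048 against 19617 to 42047. Dendritic markers summed to 11932 to 98469 in AML and 2066 to 4078 in whole marrow, with 5 of 6 called higher, or 4 after TMM scaling. All 9 B cell, all 5 eosinophil, all 4 mast and basophil, all 8 erythroid and 4 of 5 megakaryocyte markers were called lower in AML. The same numbers were called lower after TMM scaling. Eosinophil sums were 402 to 1399 in AML and 21343 to 48902 in whole marrow. Of 8 T and NK cell markers 4 were called higher and none lower. After TMM scaling none was higher and 2 were lower. The part of these cells in the values of the oxidase genes was not tested.

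**Figure D3:**
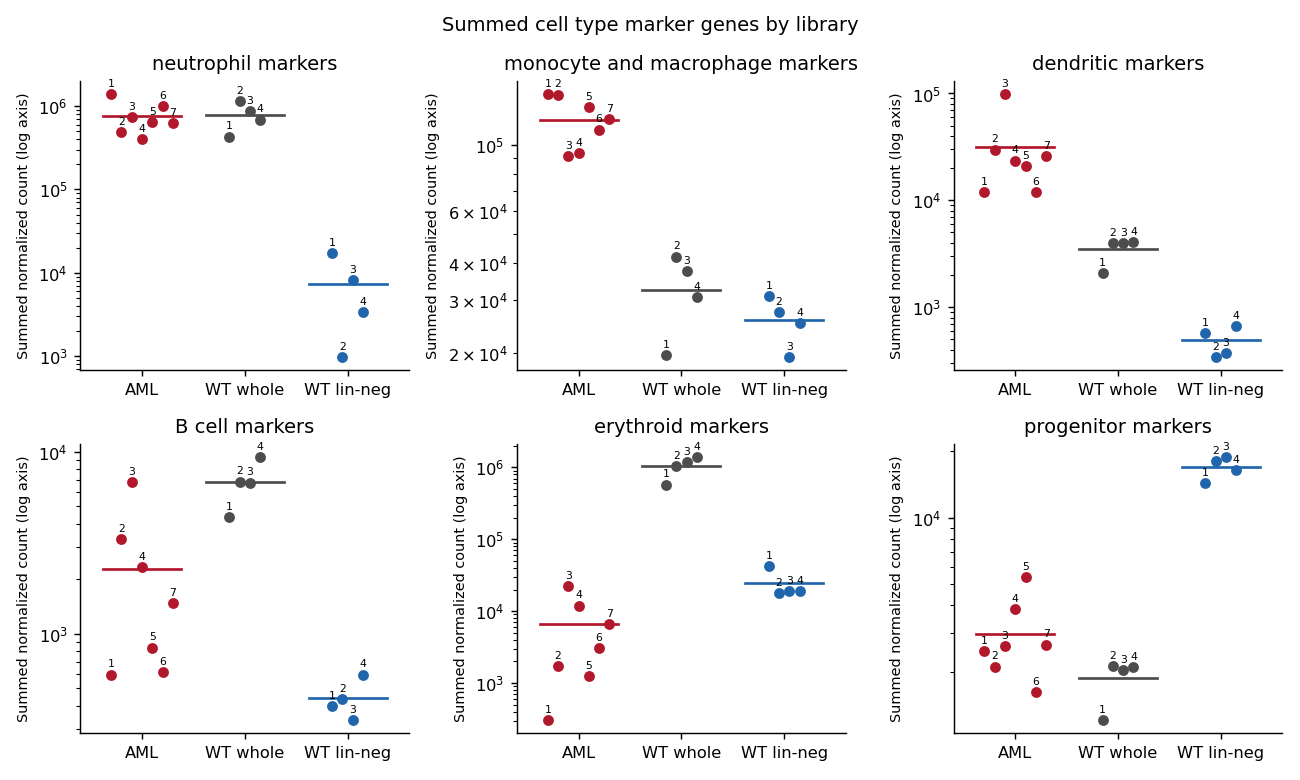
Summed normalized counts (log axis) of 6 marker lists in each library, with group means as lines and replicate numbers as labels. Neutrophil sums overlap between AML and whole marrow (398909 to 1388620 and 430275 to 1149280), whereas monocyte and macrophage sums do not.

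Ratios of 2 oxidase genes within a library do not depend on the scaling between libraries, so they compare the makeup of the oxidase transcripts directly. Here 5 ratios were compared in 3 pairs of groups by exact permutation tests over samples, 15 tests in all, on log2 ratios of normalized counts. Ratios compare libraries, not the abundance of the 2 genes, since lengths differ.

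Hvcn1 stood lower against Cybb in AML than in whole marrow. The ratio was 0.0571 to 0.10 in AML with a median of 0.0802, and 0.115 to 0.129 in whole marrow. All 7 AML libraries lay below all 4 whole marrow libraries. The mean log2 ratio differed by −0.66, or 1.58-fold (exact two-sided permutation p = 0.00909, 0.0227 adjusted over the 15 tests). The difference held its sign and stayed past 0.05 without each library in turn, from −0.72 to −0.59. B cell markers were lower in AML as well. In AML the ratio was highest in replicates 4 and 6, whose summed B cell markers were 2320 and 616. These replicates also had the lowest Cybb counts in AML, 21241 and 27952. Replicate 3, with the highest B cell sum of the AML libraries, 6775, had a ratio of 0.0897. The part of B cells was not tested.

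Ncf4 stood higher against Ncf1 in AML than in whole marrow. The ratio was 0.284 to 0.415 in AML with a median of 0.310, and 0.206 to 0.242 in whole marrow. Here too the groups did not overlap, with all 7 AML libraries above. The mean log2 difference was 0.57, or 1.48-fold (exact permutation p = 0.00303, the smallest possible, and 0.00909 adjusted). Against lineage-negative marrow it was 0.54 (exact permutation p = 0.0152, 0.0326 adjusted), where 3 of 7 AML libraries exceeded all 4, because lineage-negative replicate 1 reached 0.313. Without lineage-negative replicate 2 or 3 its exact permutation p was 0.05, at 0.45 and 0.44. The 2 normal groups differed by 0.03 (exact permutation p = 0.914), with a sign that turned in 4 of the 8 refits that left out 1 library, down to −0.13 without lineage-negative replicate 1.

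Cybb itself set lineage-negative marrow apart. The ratio of Cyba to Cybb was 0.828, 1.89, 1.29 and 1.01 in the lineage-negative libraries, 0.188 to 0.235 in whole marrow and 0.165 to 0.384 in AML. The ratio of Ncf1 to Cybb was 2.49 to 4.46 in lineage-negative marrow, 0.594 to 0.741 in whole marrow and 0.378 to 0.844 in AML. That of Rac2 to Cybb was 3.29 to 5.93, 0.447 to 0.494 and 0.303 to 0.549 in the same order. All 3 ratios were higher in every lineage-negative library than in any library of the other groups. For these 3 ratios and that of Hvcn1, AML differed from lineage-negative marrow by −2.28 to −3.93 on the log2 scale (each exact permutation p = 0.00303, the smallest possible, and 0.00909 adjusted). Lineage-negative differed from whole marrow by 2.33 to 3.27, each with an exact permutation p of 0.0286, the smallest that 4 against 4 samples allow, and 0.039 adjusted.

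Between AML and whole marrow the other 3 ratios overlapped. Cyba to Cybb differed by 0.17 (exact permutation p = 0.506), Ncf1 to Cybb by −0.41 (exact permutation p = 0.109) and Rac2 to Cybb by −0.27 (exact permutation p = 0.158). The spread was wider in AML: the SD of the log2 ratio of Cyba to Cybb was 0.47 in AML (n = 7) and 0.15 in whole marrow (n = 4). AML replicates 4 and 6 had the 2 highest values for Cyba, for Rac2 and for Ncf1 against Cybb. These 3 ratios share Cybb, whose counts in AML were lowest in the same 2 replicates, at 21241 and 27952, so they do not count as separate observations. Adjusted over the 15 tests, the exact permutation p was 0.136 for Ncf1 to Cybb and 0.182 for Rac2 to Cybb. Each passed an unadjusted 0.05 in 1 of the 11 refits that left out 1 library. Without AML replicate 6, Ncf1 to Cybb differed by −0.54 (exact permutation p = 0.0143) and Rac2 to Cybb by −0.35 (exact permutation p = 0.0476).

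**Figure D4:**
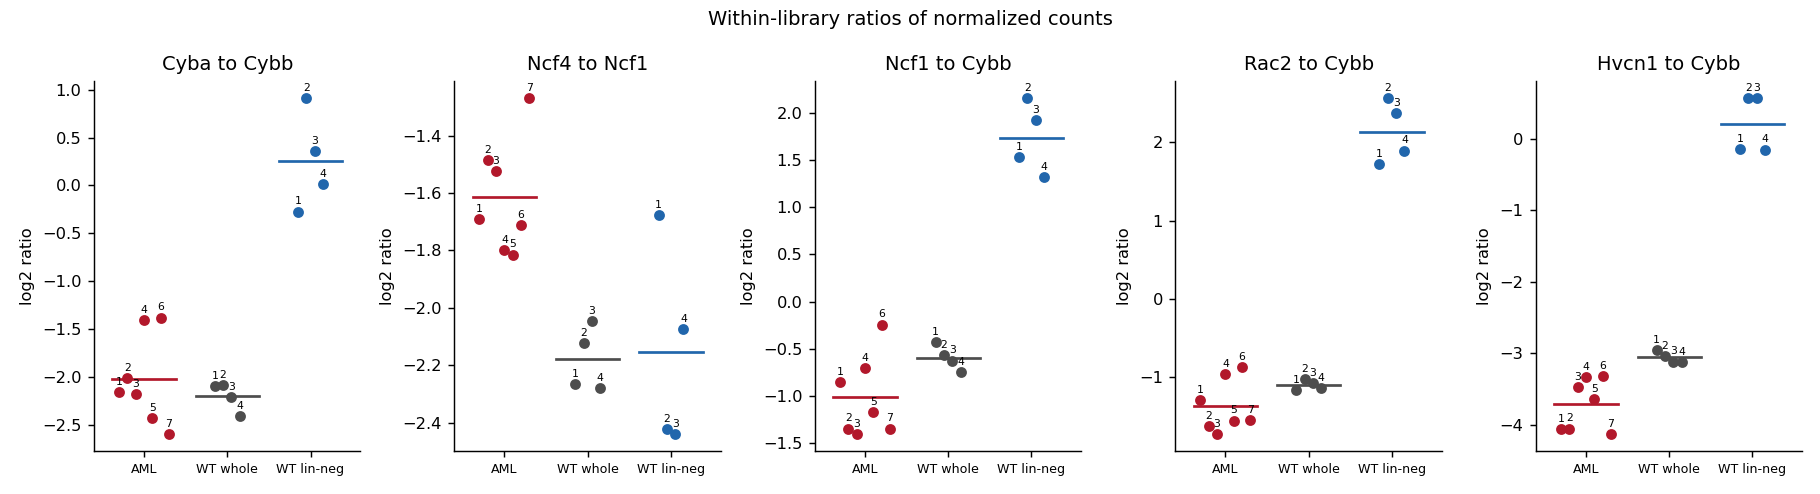
Log2 ratio (y axis) of normalized counts of 2 oxidase genes within each library, with replicate numbers and group means. Every Hvcn1 to Cybb value of AML lies below those of whole marrow, and every Ncf4 to Ncf1 value of AML lies above them.

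Levels of different genes were set side by side per kilobase of exon. The length was the union of all annotated exons of a gene. It was 5808 bases for Cybb, 1039 for Cyba, 3663 for Ncf1, 2020 for Ncf4, 3103 for Rac2 and 3563 for Hvcn1. Where the transcripts present are shorter than this union, the value per kilobase is understated, so the order depends on these lengths. In AML the order was Cyba at 8180 ± 1788 normalized counts per kilobase (SD, n = 7), Cybb at 6019 ± 1528 and Ncf1 at 4788 ± 1555. Rac2 followed at 4345 ± 1086, Ncf4 at 2831 ± 846 and Hvcn1 at 735 ± 133 per kilobase (SD, n = 7). The first 3 steps of this order held in 6 of 7 AML libraries each and the last 2 in all 7.

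In whole marrow Cyba led at 4162 ± 1300 per kilobase (SD, n = 4), followed by Ncf1 at 3560 ± 956 and Cybb at 3423 ± 994, whose order held in 3 of 4 libraries. Rac2 followed at 3017 ± 977, Ncf4 at 1445 ± 465 and Hvcn1 at 665 ± 181. In lineage-negative marrow Rac2 led at 1391 ± 179 per kilobase (SD, n = 4), before Cyba at 1130.0 ± 180. Ncf1 followed at 903 ± 225, and Ncf4 at 390 ± 201 and Hvcn1 at 321 ± 54.7 changed places in 2 of 4 libraries. Cybb was last at 175 ± 63.8 per kilobase (SD, n = 4), below Hvcn1 in all 4 libraries. With these lengths the catalytic subunit was the lowest of the 6 in lineage-negative marrow and second in AML.

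Among the 7 AML marrows, replicate 1 had the highest count of 5 of the 6 genes and replicate 4 the lowest of 5 of them. The exceptions were Hvcn1, highest in replicate 3, and Cyba, lowest in replicate 7. With TMM scaling replicate 1 was highest for 4 genes and replicate 4 lowest for 4. The ratio of the highest to the lowest AML library ran from 1.56 for Hvcn1 to 2.34 for Cybb, and the coefficient of variation from 18.1% for Hvcn1 to 32.5% for Ncf1. Replicate 1 also had the highest summed neutrophil markers, 1388620, and replicate 4 the lowest, 398909. Replicate 3, highest for Hvcn1, had the highest summed B cell markers, 6775, and the highest dendritic markers, 98469. Whether these cells set the order was not tested.

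In whole marrow, replicate 2 was highest and replicate 1 lowest for all 6 genes. With TMM scaling replicate 2 was still highest for all 6, but replicate 1 was lowest for 2 genes and replicate 4 for 4. The deposited values of replicate 1 summed to 10221000, against up to 19285200 in this group. The coefficients of variation, 26.8% to 32.4% as deposited, were 9.54% to 17.3% after TMM scaling. In lineage-negative marrow replicate 1 was highest for 5 of 6 genes, and it also had the highest summed neutrophil markers, 17113. The same library had the highest sums of monocyte and macrophage, erythroid, and T and NK cell markers too. Its Ncf4 count of 1396 stood apart from the other 3.

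For each oxidase gene the 3 most similar genes were found by the root mean square difference of log2 values centred on each gene's mean over the 15 samples, among 10396 genes. Nearest to Cybb were Pirb, an inhibitory receptor of myeloid cells, at 0.263, Lyz2, lysozyme, at 0.328, and Itgam, the integrin chain CD11b, at 0.339. Cyba lay nearest to Prdx5, a peroxiredoxin, at 0.179, then to Anxa2 at 0.208 and to Msrb1, a methionine sulfoxide reductase, at 0.232. Ncf1 lay nearest to Dhrs7 at 0.179, to Pygl, liver glycogen phosphorylase, at 0.184, and to Arrb2, an arrestin, at 0.186.

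Ncf4 lay nearest to Pstpip2 at 0.217, Anxa2 at 0.226 and Vsir at 0.232, and Rac2 to Lasp1 at 0.101, Cmtm6 at 0.132 and Ostf1 at 0.133. Hvcn1 lay nearest to Cd37, a leukocyte tetraspanin, at 0.195, Mctp1 at 0.196 and Inpp1 at 0.198. No oxidase gene was among the 3 nearest of another. Cyba and Ncf4 were the closest of the cytochrome and cytosolic subunits, at 0.337, Rac2 and Hvcn1 were 0.302 apart, and Cybb was 1.03 or more from each of the other 5. Values were centred but not scaled, so these distances also follow the size of each gene's swing. The SD of log2 values over the 15 samples was 2.27 for Cybb, 1.33 for Ncf4, 1.25 for Cyba and 1.10 for Ncf1. It was 0.768 for Rac2 and 0.596 for Hvcn1.

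Among other genes of the oxidase family, Cybc1, whose product is needed for gp91phox protein to accumulate, averaged 2922 ± 497 over AML libraries (SD, n = 7), 1211 ± 452 over whole marrow (SD, n = 4) and 1321 ± 174 over lineage-negative marrow (SD, n = 4). It was called in both comparisons, at 1.35 (limma adjusted p = 7.26e-05) and 1.14 (adjusted p = 0.000445), and not after TMM scaling against whole marrow, at 0.66. Rac1, the widely expressed relative of Rac2, was called higher than in whole marrow, at 1.14 (adjusted p = 7.97e-05), and not after TMM scaling, at 0.44. The ratio of Rac2 to Rac1 per kilobase was 2.07 to 3.38 in AML, 3.64 to 4.04 in whole marrow and 1.25 to 2.14 in lineage-negative marrow. This ratio was singled out after its values were seen. Noxo1, the organizer paralogous to Ncf1, was called higher than in whole marrow too and averaged 20.3 normalized counts over AML and 9.17 over whole marrow. Its call was lost after TMM scaling, at 0.45 (limma adjusted p = 0.231), and against lineage-negative marrow it had 0.11 (adjusted p = 0.811).

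Regulators of Rac and Rap numbered 13, all tested. Against whole marrow 7 were called higher and none lower, beside 27.3% and 11.3% of all genes, with a median difference of 1.04 beside 0.67 for all genes, and after TMM scaling none was called. Arhgdia and Prex1 had the largest differences, 1.43 and 1.32. Against lineage-negative marrow 5 were higher and none lower, beside 17.7% and 12.5% of all genes, with a median of 0.66 beside 0.02 for all genes. Arhgap25, a GTPase-activating protein for Rac, had 1.58, and Arhgdib, the leukocyte inhibitor that holds Rac in the cytosol, had 1.54.

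Of 11 kinases and lipid signalling genes upstream of the oxidase, 6 were called higher than in lineage-negative marrow, beside 17.7% of all genes, and none lower, with a median of 1.17. Prkcb, a protein kinase C that phosphorylates p47phox, averaged 2612 ± 542 over AML (SD, n = 7) and 242 ± 98.3 over lineage-negative libraries (SD, n = 4), a difference of 3.49 (limma adjusted p = 1.17e-09). Pik3r5, a regulatory subunit of PI3-kinase gamma, had 2.90. Against whole marrow 5 were called higher, beside 27.3% of all genes, led by Pik3cd at 1.39 and Prkcd at 1.29, and none after TMM scaling. The median of this list was 1.00 beside 0.67 for all genes.

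All 15 receptors listed as triggers of the oxidase were called higher in AML than in lineage-negative marrow, beside 17.7% of all genes, with a median of 3.64, led by the formyl peptide receptors Fpr2 at 7.63 and Fpr1 at 7.37. Against whole marrow 3 were called higher, beside 27.3% of all genes, and none lower, with a median of 0.58, below the 0.67 of all genes. Fcgr1, the high-affinity IgG receptor, averaged 1090 ± 717 over AML (SD, n = 7) and 160 ± 64.4 over whole marrow (SD, n = 4), a difference of 2.52 (limma adjusted p = 0.000377), and it was the 1 receptor still called higher after TMM scaling, at 1.83. Csf2rb, the common beta chain of cytokine receptors, had 1.34. Csf3r, the G-CSF receptor, was called lower after TMM scaling alone, at −1.0, and was picked out after its value was seen.

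Of 9 genes of NADPH supply, 8 were tested: 3 were called higher than in lineage-negative marrow and 1 lower, beside 17.7% and 12.5% of all genes. G6pdx, the first enzyme of the pentose phosphate pathway, had 1.63 (limma adjusted p = 4.28e-05) and Idh1, the cytosolic isocitrate dehydrogenase, 1.27. Idh2, its mitochondrial relative, was lower, at −1.15 (adjusted p = 0.000375). Against whole marrow 4 were called higher, beside 27.3% of all genes, with Idh1 at 1.21 and Idh2 at 1.21, and none after TMM scaling.

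Genes that remove or use superoxide and peroxide went both ways. Of 19, all tested, 4 were called higher and 5 lower in AML than in lineage-negative marrow, beside 17.7% and 12.5% of all genes. Against whole marrow 2 were called higher and 5 lower, beside 27.3% and 11.3%. Nqo1, a quinone reductase, was low against both normal groups, averaging 38.1 ± 29.5 over AML (SD, n = 7), 191 ± 67.0 over whole marrow (SD, n = 4) and 192 ± 51.2 over lineage-negative libraries (SD, n = 4). Its differences were −2.62 (limma adjusted p = 0.000251) and −2.67 (adjusted p = 0.000259). Prdx2, a peroxiredoxin abundant in red cells, was lower than in whole marrow by −1.90 (adjusted p = 3.80e-07). Mpo, myeloperoxidase, which turns peroxide into hypochlorous acid, was lower than in lineage-negative marrow, at 26798 ± 17357 (SD, n = 7) against 102921 ± 22451 (SD, n = 4), a difference of −2.21 (adjusted p = 0.000345). Hmox1 had 3.50 and Prdx5 had 2.77 against lineage-negative marrow, whereas Prdx1 and Sod1 were called higher than in whole marrow, at 1.48 and 1.40, and not after TMM scaling.

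Of 10 transcription factors known to act on oxidase genes, 7 were called higher than in whole marrow, beside 27.3% of all genes, and none lower, with a median of 1.42. After TMM scaling 2 were called higher, beside 4.73% of all genes. Those 2 were Irf8, at 2.33 (limma adjusted p = 1.51e-06) and 1.64 after TMM scaling, and Cebpa, at 1.89 and 1.19. Irf8, an interferon regulatory factor of monocytes, averaged 14597 ± 4591 over AML (SD, n = 7), 2784 ± 526 over whole marrow (SD, n = 4) and 6527 ± 1640 over lineage-negative libraries (SD, n = 4). Against lineage-negative marrow 6 were higher and 1 lower, beside 17.7% and 12.5% of all genes. Cebpe, needed for late granulocyte maturation, had 2.39 and Cebpb had 2.27, while Hoxa10, whose product represses Cybb, had −1.99 at means of 10.9 and 36.6. Spi1, which encodes PU.1 and was added after its values were seen, had 1.83 against lineage-negative and 1.20 against whole marrow, or 0.51 after TMM scaling.

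**Figure D5:**
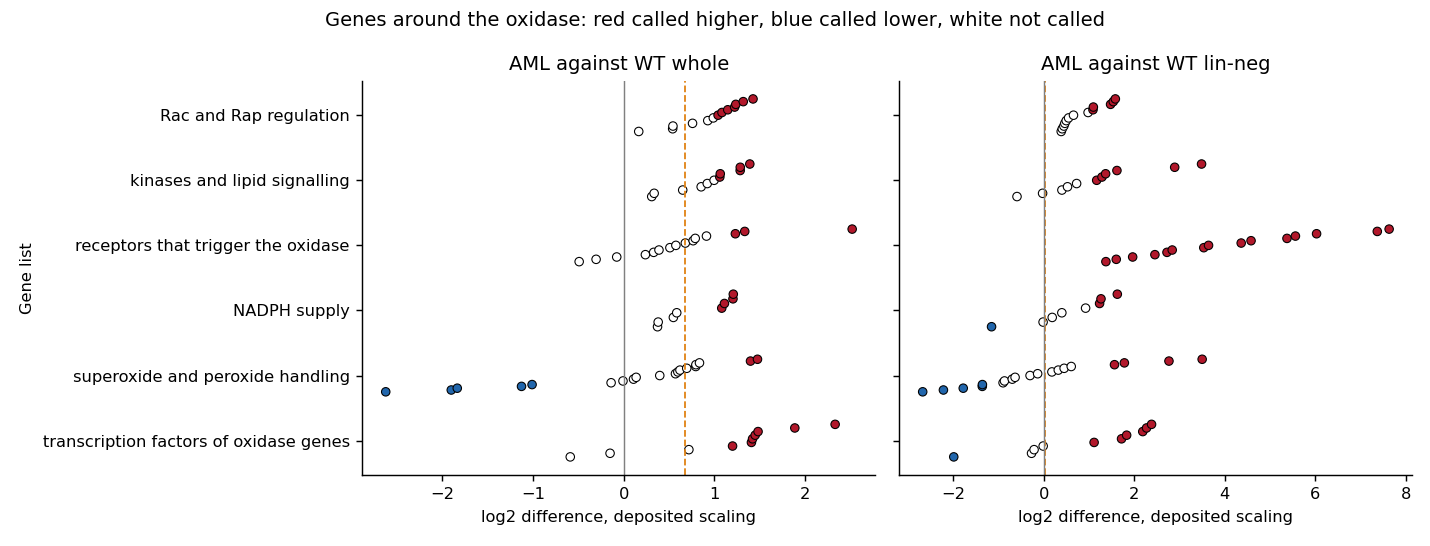
Log2 difference with the deposited scaling (x axis) of each tested gene in 6 lists (y axis), for both comparisons with AML; red was called higher, blue lower, white not called, and the dashed line is the median of all genes. All 15 receptors lie to the right of 1 against lineage-negative marrow, with a list median of 3.64.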

How the data were processed

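The deposited table holds gene counts that the authors divided by 1 DESeq2 size factor per library, type poscounts, per its name; the authors' deposited values are thus a signal in normalized counts, not per length. The submitters' processing notes name Partek, STAR, DESeq2 and mm10, with no role or version; quantifier and strand setting are not given in the sources used here, so antisense or overlapping reads were not separated. Per the labels, TRIzol was used for RNA and a TruSeq Stranded Total RNA kit for libraries. Table starts matched a GRCm38 annotation for 861 of 38066 shared genes, so its coordinates are printed unconverted; that annotation (GENCODE M21) gave exon lengths.

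Values were not whole reads: 81.4% to 87.0% of low values were multiples of the value of 1 read (tolerance 0.02), and depth was estimated from that value. No count test was therefore run. Genes with at least 10 in at least 4 samples were kept. log2(value + 1) entered limma 3.58.1 (R 4.3.3; 3 group means, mean-variance trend, Benjamini-Hochberg over 18941 genes, two-sided), so fold changes of low genes are understated. TMM (trims of 30% and 5%) was recomputed on the genes kept; it was first run over all genes in the table, and the set shown was chosen after both had been seen (values under the dependence on processing). The scripts were tested on simulated data. Ratios had exact permutation tests (330 or 70 splits). Named genes were the 6, up to 2 called genes per direction of each list in both AML comparisons, and the 3 most similar genes with a mean of at least 100. The members and lists were chosen with earlier results of these data known. One other gene is not reported here.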

Additional observations from a re-analysis of the deposited data

Results flagged for a closer look

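Of 33 checks for a sample that stands apart within its group, on log2 values of the 6 genes and on the 5 ratios, 1 was positive, where chance gives about 1 in 20. Ncf4 in lineage-negative replicate 1, at 1396 normalized counts, lay apart from the other 3 libraries, at 542 to 611: the gap was 0.874 of the whole range of the group, above the critical value for 4 samples. The same library had the highest summed neutrophil markers of its group, 17113. It was also highest for monocyte and macrophage, erythroid, and T and NK cell markers, at 30997, 41990 and 1943. The part of these cells was not tested.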

How the results depend on the processing

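In AML against lineage-negative marrow all 6 oxidase genes were called under each alternative run, and in lineage-negative against whole marrow 4 to 6 were called lower as single libraries were left out. In AML against whole marrow the count of 1 called gene became 0 with TMM scaling, 0 without AML replicates 5 and 6 (an alternative chosen after seeing the data; those libraries list fewer genes at 0), and 0 to 2 as single libraries were left out; the TMM values of Ncf1, Rac2 and Hvcn1 were −0.28, −0.14 and −0.53. TMM was first run over all genes in the table, and scaling on the genes kept was chosen once both results were known: over all genes, 0 oxidase genes and 4002 genes in all were called, Cyba was at 0.40 (limma adjusted p = 0.0732), and Ncf1, Rac2 and Hvcn1 were at −0.19, −0.043 and −0.43. No call of an oxidase gene differed between the 2 TMM versions in any of the 3 comparisons. The 7299 calls over all genes became 16590 with all genes of non-zero value tested, 4863 with a mean of at least 50, 3934 with TMM (22.8% of them higher, against 70.8%) and 4480 to 7553 as libraries were left out, the lowest without whole marrow replicate 1. Against lineage-negative marrow the 5732 calls became 3820 with a mean of at least 50, and the 9525 between the normal groups became 18984 with all genes; that split was 65.8% higher as deposited and 30.7% with TMM. As single libraries were left out, Hvcn1 against whole marrow ran from −0.032 to 0.31, Ncf4 to Ncf1 from 0.44 to 0.70 (AML against lineage-negative) and −0.13 to 0.12 (normal groups; −0.0037 and −0.0084 without whole marrow replicate 1 or 4, −0.0014 without lineage-negative replicate 4), and against whole marrow Ncf1 to Cybb from −0.54 to −0.35 and Rac2 to Cybb from −0.35 to −0.21. Replicate numbers pair nothing in the labels, and same-numbered samples correlated at −0.288 to 0.171. With the replicate block the calls were 7455, 5880 and 9681, the same numbers of oxidase genes were called, and Cyba against whole marrow was 1.09. The floor of 3 reads was 1.96 to 4.09 normalized counts, far below the oxidase genes, and it covers counting error only.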

Other observations

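Noxa1, an activator of the oxidase of epithelia, did not pass the filter, and it was picked out after its values were seen. It had 270 normalized counts in AML replicate 6 and 0 to 2.25 in the other 6 AML libraries. In whole marrow it had 0 to 0.898 and in lineage-negative marrow 0 to 1.96, all at or under the floor of 3 reads.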
